A study of Mus musculus with 54 samples.

Results

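The genes described here are the 8 MHC class II genes H2-Aa, H2-Ab1, H2-Eb1, Cd74, H2-DMa, H2-DMb1, H2-DMb2 and Ciita, and Cd83. They were taken by symbol from the 43280 gene symbols in each table, and all 9 were present. Single mouse lung cells make up the series, 54 in number, each labelled as an interstitial macrophage, a macrophage of the lung tissue between the airspaces. Libraries were prepared with a modified SMART-seq2 chemistry, which covers whole transcripts, and read out as TPM, each transcript's share of the library on a fixed total, a level per transcript length that can be compared between genes. The labels give no strain, genotype, age, sex, treatment, animal, sort gate or plate, so the cells count as 1 sample. The values describe these cells with no test, and cells are not replicates of a condition.

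MHC class II molecules are pairs of an alpha and a beta chain that display peptides from endocytosed proteins to CD4+ T cells. The invariant chain, encoded by Cd74, holds the new pair together and fills its groove until proteases such as cathepsin S trim it, and H2-DM then exchanges the last fragment for a peptide. CIITA switches the whole set on through a shared promoter element, and CD83 is a surface protein that, in mouse dendritic cells and thymic epithelium, protects class II molecules from MARCH-family ubiquitin ligases. In lung and other tissues, interstitial macrophages are commonly divided by how much class II they carry.

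The shared promoter element holds an X box, bound by the RFX complex, and a Y box, an inverted CCAAT bound by NF-Y. RefSeq promoter windows (build GRCm38.p6) were at hand for 5 members, H2-Aa, H2-Eb1, H2-DMa, H2-DMb1 and H2-DMb2. The 4 below are shown because they carry these letters close to the gene start. Each is the 130 bases before the annotated start, 5′ to 3′ in the sense of the gene, and capitals mark AACNGATG (an X box core), ATTGG (the Y box) and TGACGTCA (a cyclic AMP response element, which X2 boxes resemble), all on the sense strand.
H2-Eb1: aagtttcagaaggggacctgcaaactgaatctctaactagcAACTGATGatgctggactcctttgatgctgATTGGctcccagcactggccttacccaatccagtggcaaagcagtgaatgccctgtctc
H2-DMb1: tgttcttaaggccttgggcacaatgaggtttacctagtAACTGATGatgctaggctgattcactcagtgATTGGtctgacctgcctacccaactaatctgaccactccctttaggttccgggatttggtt
H2-DMb2: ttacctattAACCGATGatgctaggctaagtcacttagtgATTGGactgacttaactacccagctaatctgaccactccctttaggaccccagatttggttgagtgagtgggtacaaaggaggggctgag
H2-Aa: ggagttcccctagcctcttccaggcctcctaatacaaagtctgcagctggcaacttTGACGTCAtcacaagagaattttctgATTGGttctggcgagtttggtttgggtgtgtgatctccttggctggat

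These windows lie on the plus strand at chr17:34305737-34305866 for H2-Eb1, chr17:34153061-34153190 for H2-DMb1 and chr17:34145119-34145248 for H2-DMb2, and on the minus strand at chr17:34287824-34287953 for H2-Aa. The Y box begins 59, 61, 90 and 48 bases before the start of H2-Eb1, H2-DMb1, H2-DMb2 and H2-Aa. Over the 250 bases before each start and on both strands, AACNGATG was found in 1.98% of 32851 RefSeq promoters, ATTGG in 33.8% and TGACGTCA in 1.55%. AACNGATG followed on the same strand by ATTGG after 10 to 30 bases was found in 7 promoters, or 0.0213%, those of H2-Eb1, H2-DMb1, H2-DMb2, H2-Eb2, H2-M10.4, BC051142 and Gm35697. The letters and the spacing were written down after these sequences had been seen. The motifs do not overlap in the printed windows, and a match is a description of the letters alone.

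The cells were divided by a score, the mean log2(TPM + 1) of Prg4 (lubricin), Alox15 (a lipoxygenase) and Fn1 (fibronectin), at 7. There were 23 cells at 7 or more, called high-score cells here, and 31 low-score cells under 7. Only 2 cells had a score between 6 and 8, cell 31 at 7.31 and cell 20 at 7.76, and the nearest cells below were cell 29 at 5.34 and cell 1 at 4.86. The high-score cells also held more of the 13 serous cavity macrophage markers, summed to between 480 and 13954 TPM against 0 to 1979 TPM in low-score cells, and 12 of those markers were higher in them by more than 1 in mean log2(TPM + 1). Selp and Icam2 each reached 10 TPM in 22 of the 23. C1qb, a complement gene of macrophages, reached 10 TPM in all 23 high-score cells and in 29 of the 31 low-score cells. Genes above 0 had a median of 2889 per high-score cell and 2626 per low-score cell, and sequencing depth cannot be read from TPM. Of the members, 7 were above 0 in at least 5 cells of each group, and H2-DMb2 and Ciita were not.

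Class II genes made up a large part of the RNA of many low-score cells and very little of that of high-score cells. In low-score cells the 8 genes took between 0.00141% and 19.6% of all TPM, with a median of 5.89%. In high-score cells they took between 0% and 0.866%, with a median of 0.00415%. The group ranges overlap, since 7 of the low-score cells held no H2-Ab1 at 10 TPM and 5 of the high-score cells did. The median of the class II level, the mean log2(TPM + 1) of the 8 genes, was 9.11 in low-score and 1.45 in high-score cells, a difference (high minus low) of -7.66 with an SD over cells within groups of 3.0.

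**Figure D1:**
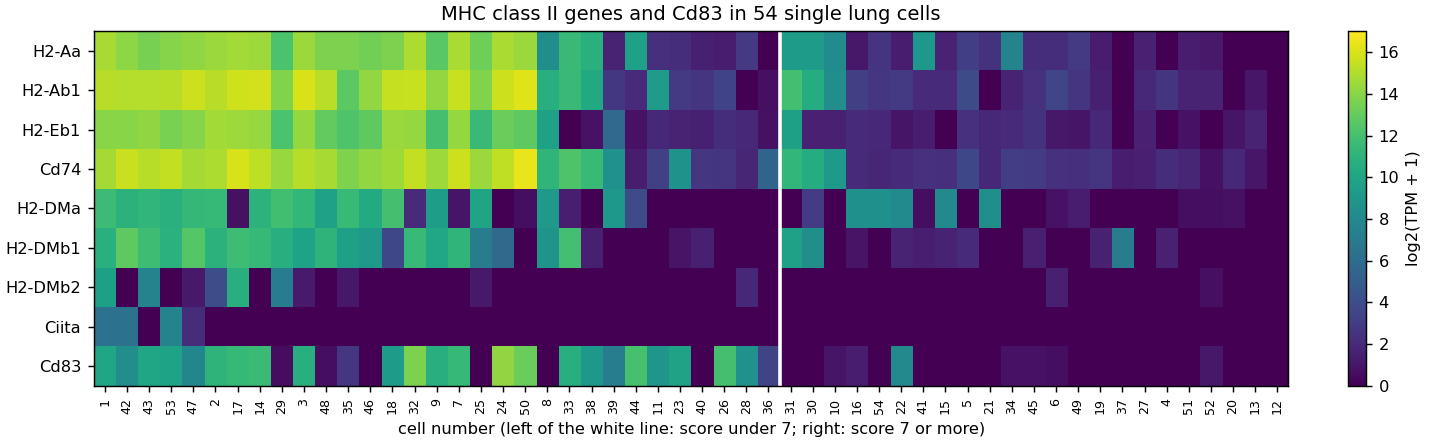
Level of the 9 genes (rows) in each of 54 cells (columns), as log2(TPM + 1) by colour; low-score cells are left of the white line and high-score cells right of it, each ordered by class II level. The 4 upper genes are bright together in most low-score cells, Cd83 is bright in cells at both ends of that order, and 11 of the 54 cells hold none of the 9 genes at 10 TPM.

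H2-Ab1, the beta chain of the I-A molecule, ran from 0 to 74579.2 TPM in low-score cells with a median of 19795.9 TPM. In high-score cells it ran from 0 to 3907.03 TPM with a median of 3.06 TPM. It reached 10 TPM in 24 of 31 low-score cells, or 77.4% (exact 95% binomial interval 58.9 to 90.4%), and in 5 of 23 high-score cells, or 21.7% (7.46 to 43.7%). These intervals cover counting error among these cells only.

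The 5 high-score cells with H2-Ab1 differed among themselves. Cells 5 and 6 were only just over the threshold, at 14.29 and 10.68 TPM. Cells 10, 30 and 31 held 344.67, 1465.62 and 3907.03 TPM, and also Cd74 and H2-Aa. Cell 31, the cell nearest the score threshold, had 6 of 10 alveolar macrophage markers above 10 TPM, so this one cell carries signs of another macrophage type.

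H2-Aa, the alpha chain of I-A, had medians of 11702.2 TPM in low-score and 2.22 TPM in high-score cells, with highest values of 30122.3 and 671.07 TPM. H2-Eb1, the beta chain of the I-E molecule, had medians of 7006.54 and 1.89 TPM, with highest values of 25779.8 and 804.35 TPM. It reached 10 TPM in 22 of 31 low-score cells and in cell 31 alone among high-score cells. H2-Aa reached 10 TPM in 24 of 31 low-score and 5 of 23 high-score cells, so the ranges of the score groups overlap for both chains. H2-Ea-ps, the I-E alpha pseudogene, and H2-Eb2 were at 0 in all 54 cells.

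Cd74 was the most widely held of the 9 genes. Its TPM ran from 1.52 to 91787.1 in low-score cells (median 23038.4) and from 0 to 2423.1 in high-score cells (median 3.57). It reached 10 TPM in 26 of 31 low-score cells, or 83.9% (66.3 to 94.5%), and in 4 of 23 high-score cells, or 17.4% (4.95 to 38.8%).

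The difference in mean log2(TPM + 1), high-score minus low-score cells, was -8.85 for Cd74, -8.57 for H2-Ab1, -7.98 for H2-Eb1 and -7.72 for H2-Aa. Of 8529 genes above 0 in at least 5 cells, 5.57% were lower in high-score cells by more than 1 and 20.8% were higher. The median difference over all those genes was 0.19, and these 4 genes held the 4 lowest places of the 8529. The score was built from other genes, but the cells it separates differ in many genes, so the size is a description of these cells.

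H2-DM, the peptide exchange factor, is a pair of H2-DMa and an H2-DMb chain. H2-DMb1 ran from 0 to 6909.58 TPM in low-score cells with a median of 821.74 TPM, and from 0 to 862.13 TPM in high-score cells with a median of 0. It reached 10 TPM in 21 of 31 and in 3 of 23 cells (difference in mean log2 -5.37). All 21 low-score cells with H2-DMb1 also held H2-Aa, H2-Ab1 and Cd74.

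H2-DMa ran from 0 to 4036.16 TPM in low-score cells with a median of 547.73 TPM, and from 0 to 367.44 TPM in high-score cells with a median of 0.53 TPM. It reached 10 TPM in 18 of 31 and in 5 of 23 cells (difference -4.05). The 5 high-score cells were cells 15, 16, 21, 22 and 54, at 267.01, 367.44, 357.56, 283.18 and 362.35 TPM, a narrow range. None of these 5 cells had H2-Aa, H2-Ab1, H2-Eb1, Cd74 or H2-DMb1 at 10 TPM, whereas 17 of the 18 low-score cells with H2-DMa also held Cd74. This subset was noticed after the values were seen.

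The H2-DM chains did not track each other among the cells that held both. Over those 16 cells the log2 ratio of H2-DMa to H2-DMb1 had a median of 0.38, an SD of 2.37 and a range from -1.84 to 8.38, and Spearman's rho was 0.03. In cells 7, 17, 24, 32 and 50 H2-DMa stood at 0.98, 0.71, 0, 3.12 and 0.58 TPM beside more than 10 TPM of all 4 of H2-Aa, H2-Ab1, H2-Eb1 and Cd74. H2-DMb1 likewise was at 0 in cell 50, which had the highest H2-Ab1 and Cd74 of all cells. A low or zero value in a single cell is not shown to be absence, since the depth is unknown.

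H2-DMb2, the second copy of the H2-DMb gene, reached 10 TPM in 5 of 31 low-score cells (cells 1, 2, 17, 29 and 43, at 15.62 to 1680.43 TPM) and in 0 of 23 high-score cells (upper limit from a count of 0: 13.04% of cells). All 5 cells held more H2-DMb1 than H2-DMb2, with a median log2 ratio of -3.54. The transcripts of the copies are 94.6% identical over 1219 aligned bases in GENCODE M21, and 26.8% of the 51-base stretches of H2-DMb1 (the read length) also occur in H2-DMb2. The split of reads between the copies is therefore uncertain. H2-Aa, H2-Ab1, H2-Eb1, Cd74, H2-DMa, Ciita and Cd83 shared no such stretch with another gene.

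Ciita, the class II transactivator, was above 0 in 4 cells only, all low-score. It stood at 82.69, 78.53 and 191.4 TPM in cells 1, 42 and 53 and at 3.64 TPM in cell 47, and at 0 in the other 50. By the level of the other 7 class II genes these 4 cells ranked 1, 6, 10 and 5 of the 31 low-score cells. In high-score cells Ciita was at 0 in all 23.

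The 4 genes H2-Aa, H2-Ab1, H2-Eb1 and Cd74 were found together or not at all in most cells. All 4 reached 10 TPM in 21 of 31 low-score cells, or 67.7% (48.6 to 83.3%), and the count was the same at 100 TPM. None did in 3 low-score cells, and 1 to 3 of them did in the remaining 7. In high-score cells all 4 were found in cell 31 alone, and none in 16 of 23 cells, or 69.6% (47.1 to 86.8%). In the 21 low-score cells with all 4, class II genes took from 0.595% to 19.6% of the TPM, with a median of 11.5%.

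Cells with part of the set showed which gene stood alone. Cells 34, 41 and 44 held H2-Aa at 199.81, 533.67 and 839.3 TPM with H2-Ab1, H2-Eb1 and Cd74 under 10 TPM. Cell 11 held H2-Ab1 at 661.21 TPM with H2-Aa at 4.23 TPM and Cd74 at 8.51 TPM. Cells 23 and 36 held Cd74 at 413 and 43.81 TPM without a chain.

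Cells 10, 30, 33 and 38 held H2-Aa, H2-Ab1 and Cd74 without H2-Eb1, which stood at 1.95, 1.92, 0 and 0.78 TPM. Their H2-Ab1 values, from 344.67 to 2865.88 TPM, were far below the 36838.5 TPM median of low-score cells with H2-Ab1. Cell 36 had 4 T or NK cell and 4 monocyte markers above 10 TPM, and cell 40, with none of the set, had 7 of 10 alveolar macrophage markers. Without the 7 cells that had at least 3 markers of another type above 10 TPM, all 4 genes were found in 18 of 26 low-score cells, or 69.2%.

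Where 2 chains were both present, their ratio had the same direction in most cells and varied in size. H2-Aa was below H2-Ab1 in 24 of the 26 cells with both at 10 TPM, with a median ratio of 0.452 (median log2 ratio -1.15, SD 0.79, range -2.57 to 0.95). The exceptions were cells 35 and 38. H2-Eb1 was below H2-Ab1 in all 22 cells with both, with a median ratio of 0.365 (log2 -1.45, SD 0.72, range -3.41 to -0.37).

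Cd74 and H2-Ab1 were closest to equal, with a median ratio of 1.07 over 27 cells (log2 0.09, SD 0.58, range -1.03 to 1.18), a median smaller than its spread, with Cd74 higher in 15 cells and lower in 12. Cd74 was above H2-Aa in 25 of 26 cells, by a median ratio of 1.93. The H2-DM chains were an order lower, with median ratios to H2-Ab1 of 0.0682 for H2-DMa (16 cells) and 0.0568 for H2-DMb1 (23 cells). In TPM, which is per length, the order by median ratio was therefore Cd74 and H2-Ab1, then H2-Aa and H2-Eb1, then the H2-DM chains. H2-Aa and H2-Eb1 did not separate beyond their spread, with a log2 ratio of H2-Eb1 to H2-Aa of -0.32 and an SD of 0.79, and neither did H2-DMa and H2-DMb1. The sources used here give neither the strain of the mice nor the reference transcripts behind the TPM.

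**Figure D2:**
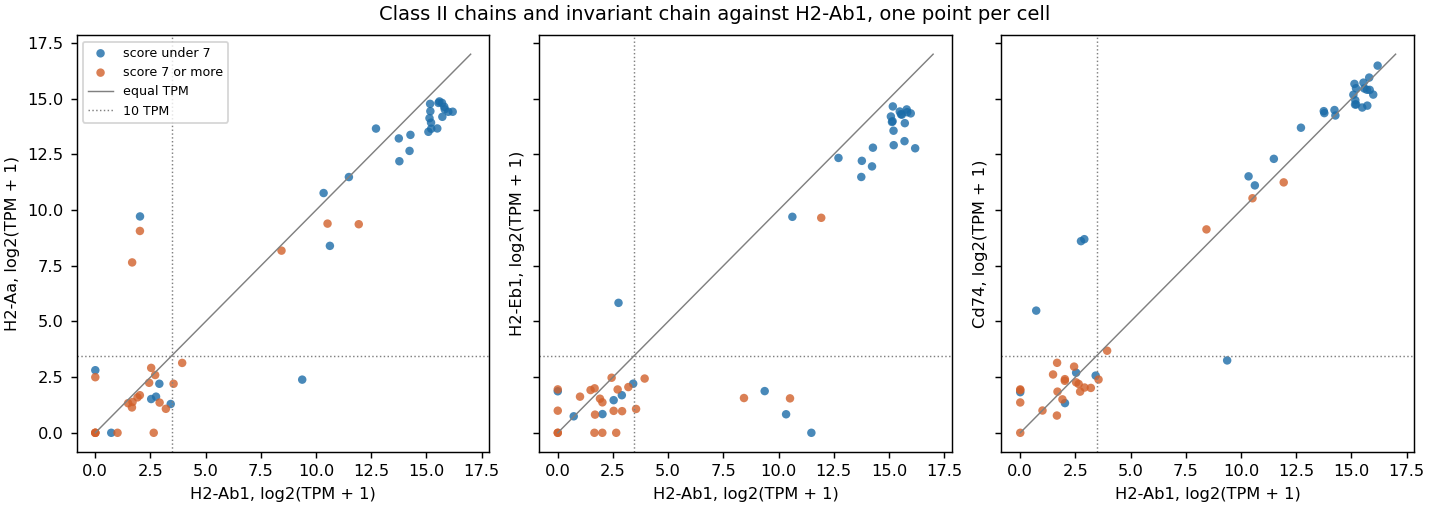
H2-Aa, H2-Eb1 and Cd74 (vertical axes) against H2-Ab1 (horizontal axes), all in log2(TPM + 1), with 1 point per cell, coloured by score group; the solid line is equal TPM and the dotted lines are 10 TPM. Of the points with both genes at 10 TPM, 24 of 26 lie below the line for H2-Aa (median ratio 0.452) and 22 of 22 for H2-Eb1 (0.365), and those for Cd74 lie along it (1.07), and few cells lie between the low corner and the upper right.

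Cd83 was held by most low-score cells and 1 high-score cell, and over all low-score cells its rank correlation with the class II level was near 0. It ran from 0 to 18944.6 TPM in low-score cells with a median of 884.36 TPM, and reached 10 TPM in 24 of 31, or 77.4% (58.9 to 90.4%). In high-score cells it reached 10 TPM in cell 22 alone, at 252.45 TPM, or 4.35% (0.11 to 21.9%), and the other 22 were at 1.55 TPM or less. The difference in mean log2(TPM + 1) was -7.44 (within-group SD over cells 3.65), the fifth lowest of the 8529 genes.

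Inside the low-score group Cd83 was found both with and without H2-Ab1. Of the 24 low-score cells with H2-Ab1, 18 held Cd83, or 75% (53.3 to 90.2%), and of the 7 without H2-Ab1, 6 did. Cells 26 and 44 held Cd83 at 4047.38 and 4290.83 TPM with H2-Ab1 at 9.67 and 3.07 TPM. Of the 6 cells with Cd83 and no H2-Ab1, cells 23, 36, 39 and 44 held another class II gene at 10 TPM, among them H2-Aa in cell 44, and cells 26 and 28 held none. The highest values, 18944.6 TPM in cell 24, 13058.6 TPM in cell 32 and 8718.04 TPM in cell 50, were in cells with all 4 class II genes.

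Conversely, 6 low-score cells held H2-Ab1 without Cd83, cells 8, 25, 29, 35, 46 and 48, where Cd83 stood between 0 and 5.49 TPM. H2-Ab1 was between 1578.2 and 38021.1 TPM in those cells. The only low-score cell with neither gene was cell 40. In 18 cells with both, Cd83 was below H2-Ab1 in every one, with a median log2 ratio of -4.19 and an SD of 2.10. Over those 18 cells Spearman's rho between Cd83 and H2-Ab1 was 0.56 (Pearson's r 0.38).

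Across the 31 low-score cells Spearman's rho between Cd83 and the class II level was 0.06 (Pearson's r 0.06). Across all 54 cells it was 0.53 (r 0.52), a value that carries the difference between the score groups. For comparison, each of the 4 chain and invariant chain genes had a rho between 0.65 and 0.74 with the other 7 class II genes inside the low-score group. All these points come from the same libraries, and the number of genes above 0 had a rho of 0.02 with the class II level over the 31 cells and -0.24 over the 54.

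**Figure D3:**
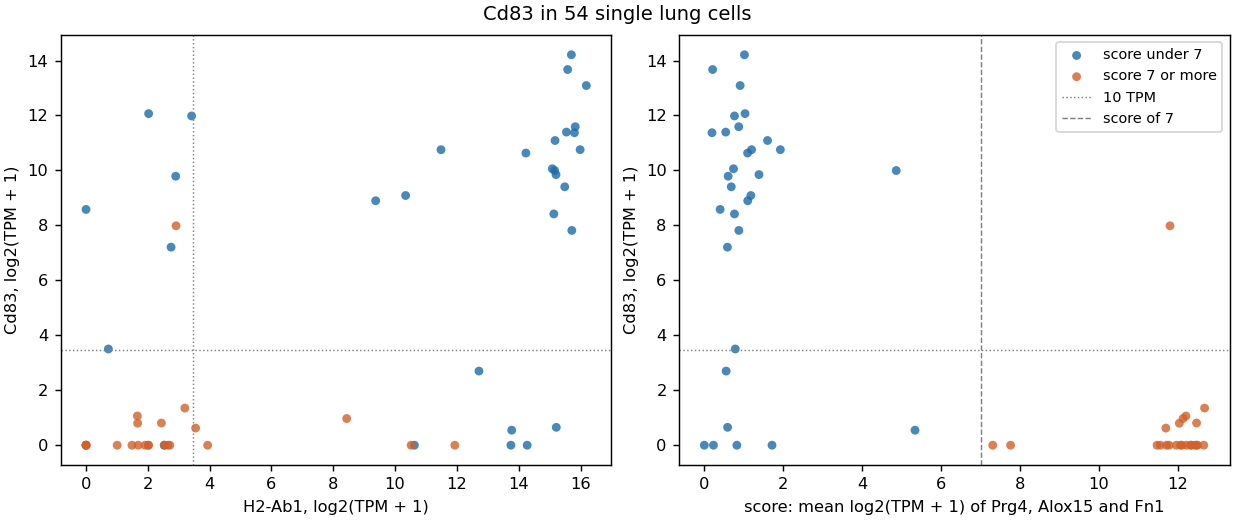
Cd83 in log2(TPM + 1) against H2-Ab1 on the same scale (left) and against the score of Prg4, Alox15 and Fn1 (right), with 1 point per cell, coloured by score group; dotted lines are 10 TPM and the dashed line is the score of 7. Cd83 is above 10 TPM in 24 of 31 low-score cells at both low and high H2-Ab1, and in 1 of 23 high-score cells.

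Values of the members fell into a high and a low range with few between. Of the 486 values (9 genes in 54 cells), 168 were 0, 127 were above 0 and under 10 TPM, 12 were from 10 to under 100 TPM, and 179 were higher. The low range was filled mostly by the 4 most abundant genes. Of the cells under 10 TPM, 95.8% held a low value above 0 for Cd74, 80.6% for H2-Eb1, 80.0% for H2-Ab1 and 76.0% for H2-Aa. The share was 38.7% for H2-DMa, 36.7% for H2-DMb1, 31.03% for Cd83, 14.3% for H2-DMb2 and 1.96% for Ciita.

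These shares went with how much of the gene the whole set of cells held. The genes with 100 to 1000 TPM summed over the 54 cells had a median share of 3.77%. The median was 8.16% for genes with 1000 to 10000 TPM, 25% for 10000 to 100000 TPM and 63.6% for the 9 genes with 100000 to 300000 TPM. Cd74, H2-Ab1 and H2-Aa were the only 3 genes above that with at least 10 cells under 10 TPM. Their low values had medians of 3.09, 3.75 and 2.22 TPM. Across the 9 members rho between the summed TPM and the share was 0.85, and across 11518 genes it was 0.48. Both are across genes, which share the same cells and are not independent.

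The low values set what detection above 0 can show. Cd74 was above 0 in 22 of 23 high-score cells and at 10 TPM in 4, and H2-Ab1 in 19 and 5. In cell 31 every member was either at 0 or at 10 TPM or more, as in 12 other cells, but only 0.0755% of all its genes above 0 were under 10 TPM, against 20.1% to 62.6% in the other 53 cells. The origin of the low values was not tested.

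**Figure D4:**
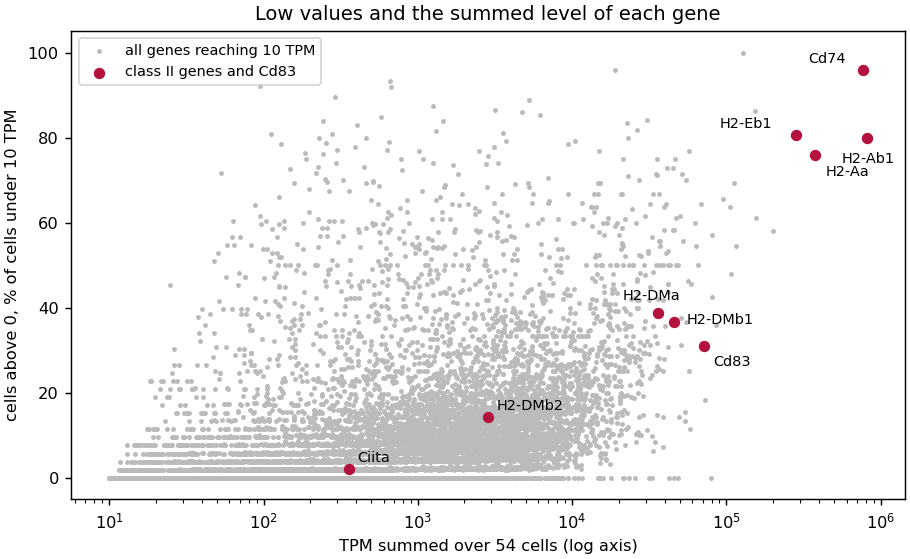
For each gene that reached 10 TPM in some cell, the share of its cells under 10 TPM that are still above 0 (vertical axis, percent) against its TPM summed over 54 cells (horizontal log axis); grey points are all genes with at least 10 cells under 10 TPM and red points the 9 members. The members run from Ciita at 1.96% to Cd74 at 95.8%, rising with the summed level.

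Genes of class II regulation, processing and T cell signalling were then set beside the members inside the low-score group, comparing the 24 cells with H2-Ab1 at 10 TPM with the 7 others. The cells were divided by a member itself, so the values only describe them. There were 46 listed genes above 0 in at least 5 of all 54 cells. Of these, 13 (28.3%) were higher in the H2-Ab1 cells by more than 1 in mean log2(TPM + 1), and 8 (17.4%) were lower. The shares over all 8529 genes were 13.3% and 15.5%. Among the 13, Cd80 and Irf1 were at 0 in all 7 other cells, so they could not have come out lower. With cells that had at least 3 markers of another type left out (21 and 5 cells remained), 13 listed genes were higher and 16 lower, among them 11 of the first 13 and all of the first 8, and 13.7% and 22.1% of all genes were past 1. The H2-Ab1 cells left out were cells 1, 43 and 48, with 3, 3 and 4 of 8 monocyte markers above 10 TPM. That marker list includes Ccr2, which is also a listed gene here. The others left out were cells 36 and 40. The cells with H2-Ab1 had a median of 2623 genes above 0 and the others 2885, but at 10 TPM the medians were 1497 and 1308 genes. Cell type markers also moved with this division. Of 10 macrophage markers, C1qa, C1qb, C1qc and Cd14 were higher in the H2-Ab1 cells by 2.32, 3.10, 2.84 and 4.05, and Cd68 and Emr1 had differences of -2.11 and -1.40. Of 9 measured alveolar macrophage markers 7 were lower by more than 1 (median difference -1.44). Among the other 7 cells, each of these markers reached 10 TPM in only 1, except Ear2 in 2. Cell 40, among those others, had 7 of the 10 alveolar markers above 10 TPM. The list summed to between 4.44 and 3638 TPM in the H2-Ab1 cells (median 14.36 TPM). In the others it summed to between 11.7 and 45620 TPM, with a similar median of 15.89 TPM. Of 4 measured monocyte markers 2 were higher by more than 1, Ccr2 by 2.96 and Nr4a1 by 1.65. F13a1 and Hp had differences of 0.48 and 0.03. The part of all these markers in the gene differences was not tested.

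In the list of 17 transcription and interferon-gamma response genes, 12 could be measured, of which 3 were higher and 2 lower. Ifngr1, a chain of the interferon-gamma receptor, was higher by 3.02 and reached 10 TPM in 16 of 24 cells against 2 of 7. Irf8 and Irf1, transcription factors of the interferon response, were higher by 2.47 and 1.38. They reached 10 TPM in 11 and 4 of 24 cells against 1 and 0 of 7, and Irf1 was at 0 in all 7. Spi1, which encodes the myeloid factor PU.1, had a difference of 0.86 that became 3.75 without the cells of other-type markers. Creb1, whose protein binds cyclic AMP response elements, had a difference of -1.89, with 10 TPM reached in 0 of 24 and 2 of 7 cells. Rfx5, Rfxap and Nfyb, subunits of the X and Y box factors, were above 0 in fewer than 5 cells, and Nfya stayed under 10 TPM in all cells.

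Of 12 processing genes, 3 were higher and 3 lower with all cells kept, a balance that changed without the cells of other-type markers. Ctss, the cathepsin that trims the invariant chain, was higher by 3.11, with 10 TPM reached in 24 of 24 and 6 of 7 cells, and Cd9, a tetraspanin, by 1.49. Cst3, a cathepsin inhibitor, was higher by 1.18, but the difference was -0.44 without the cells of other-type markers. Ctsd (cathepsin D), Lamp1 and Cd63, of the lysosome, had differences of -2.39, -1.53 and -3.54. Lgmn, the legumain protease that starts the trimming of the invariant chain, had a difference of 0.99 that became -2.04 without those cells. Likewise Ctsb, Ctsz and Ifi30 went from 0.15, 0.79 and 0.24 to -1.17, -1.10 and -1.65.

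Of 8 measured costimulation genes, Cd80, Icosl and Slamf7 were higher by 1.41, 1.43 and 1.75. They reached 10 TPM in only 5, 8 and 8 of 24 cells against 0, 1 and 1 of 7, with medians of 0 in both groups. Cd80 was at 0 in all 7 others. Cd48 and Icam1 had differences of -2.53 and -1.59, with 10 TPM reached in 13 and 2 of 24 cells and 5 and 2 of 7. Slamf7 was at 0.46 without the cells of other-type markers. Cd86, a ligand of CD28, reached 10 TPM in 13 of 24 and 4 of 7 cells, and its difference of 0.35 became -1.11 without those cells. March1, the ligase that removes class II from the surface, reached it in 4 of 24 and 1 of 7 cells, and its difference of -0.29 became -1.15. Cd44, the partner of CD74 in signalling, was higher by 1.52 (3.65 without those cells), Cxcr4 had a difference of -1.99, and Mif, the CD74 ligand, one of -0.04.

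Of the 5 genes listed as partners of class II in interstitial macrophages, Ccr2, Cd72 and Itgax were higher by 2.96, 2.48 and 1.33. The other two, Cx3cr1 and Il1b, had differences of 0.60 and 0.96. Ccr2 reached 10 TPM in 11 of the 24 cells with H2-Ab1 and in 1 of the 7 without. For Cd72 the counts were 7 and 1, and for Itgax 4 and 0.

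Class II is also a mark of dendritic cells and B cells, and markers of both were looked for. Of 11 dendritic cell markers, Ccr7, Clec9a, Itgae and Dpp4 were at 0 in every cell and Flt3 and Xcr1 stayed under 10 TPM. The other 5 did reach 10 TPM, Clec10a in 7 low-score and 2 high-score cells, Wdfy4 in 3 and 5, Batf3 in 4 and 2, Cd209a in 2 and 3 and Zbtb46 in 0 and 1. Cell 41, a high-score cell, held 3 of the 11. Between cells with and without H2-Ab1 in the low-score group, Batf3 and Cd209a differed by 1.43 and 1.12 and Clec10a by -1.28. The list summed to between 0 and 7005 TPM in the 24 cells with H2-Ab1 (median 2.67 TPM), between 0 and 2612 TPM in the other 7 low-score cells (median 0.37 TPM) and between 0 and 339 TPM in high-score cells (median 2.03 TPM). Of 4 B cell markers, Cd79a and Cd79b were at 0 and Ms4a1 reached 1.79 TPM at most. Ighm, the IgM heavy chain, reached 10 TPM in 16 of the 24 cells with H2-Ab1, 5 of the other 7 and 1 high-score cell. The summed B cell list had medians of 806, 2361 and 0 TPM in those groups, and the part of either list in the results was not tested.

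Among 1240 genes at 10 TPM in at least 10 low-score cells, the 10 whose values ran most like the class II level over the 31 cells were Ctss, Rpl11, Tmem123, Ccdc109b, Lat2, Clec4b1, Psap, Naaa, Ccr2 and Psma7. Their rho ran from 0.54 for Ctss to 0.45 for Psma7, below that of each of the 4 class II genes named above. The 5 that ran most against it were Spcs2, Sulf2, Cyr61, Gltscr2 and Gm2000, with rho from -0.57 to -0.44. Both ends are the extremes of 1240 genes ranked over 31 cells and are of similar size. Whether they go beyond what such a ranking gives among unrelated genes was not tested.

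Over all 54 cells, among 2941 genes, the 10 most alike were instead Fcrls, Mgl2, Anxa5, Adap2os, Cd81, Gatm, Plbd1, Malat1, Retnla and Gltp, with rho from 0.63 to 0.47. All 10 had a lower mean in high-score cells, with differences from -0.95 for Cd81 to -7.03 for Anxa5, so these values carry the difference between the score groups. The 5 most opposed were Padi4, Ctsd, Ednrb, 4930455G09Rik and Selp, with rho from -0.65 to -0.55.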

How the data were processed

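The authors deposited 1 table of TPM per cell, estimated with RSEM per the submitters' processing notes. The RSEM version, aligner, build and annotation are not given in the sources used here. Totals ran from 997509 to 1e+06 TPM. TPM keeps no depth, so no counting interval could be put on a level. Shares of cells carry exact (Clopper-Pearson) 95% binomial intervals, and for a share of 0 the upper limit is 3 counts of the total.

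Levels are log2(TPM + 1), which understates differences of low genes. Presence is 10 TPM or more. Genes above 0 in at least 5 cells entered comparisons between groups of cells, and a gene was called past 1 in mean log2 difference. No test was run, since the labels name 1 group and no animal. No doublet caller was run. Ranking and difference steps were tested on simulated data. Python 3.11.15, numpy 2.4.6, pandas 2.3.3 and scipy 1.17.1 were used.

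The members, gene lists and the score threshold were chosen with earlier results of these data known, and the promoter motifs after the sequences were seen. Genes were named as members, as listed pathway genes past 1, or as the 10 most and 5 least like the class II level; 2 listed genes past 1 are not reported here. Promoters are from RefSeq (GRCm38.p6), transcripts from GENCODE M21.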

Additional observations from a re-analysis of the deposited data

How the results depend on the processing

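Over 45 alternatives to 9 results, none reversed a result. Of the 45, 40 stayed within the spread over cells, the binomial interval or 1.5 times the count. For the level differences this spread is wide, an SD of 3.0 for class II and 3.65 for Cd83, and is not an error of the difference. The score thresholds of 5 and 9 moved few cells, leaving 30 and 33 low-score cells in place of 31. The 5 alternatives past their margin came from the detection threshold. With presence above 0 or at 1 TPM, the share of low-score cells with H2-Aa, H2-Ab1, H2-Eb1 and Cd74 together was 90.3% and 83.9%, and the share of Cd83 cells that also hold H2-Ab1, 72.0% at 10 TPM, was 97.1% and 92.9%. Those thresholds admit the low values. The share of low values, 43.1% under 10 TPM, was 13.4% under 1 TPM. Over pseudocounts, low values set to 0, score thresholds of 5 and 9, other scaling and cells left out, the class II difference between score groups ran from -8.32 to -6.20 and that of Cd83 from -9.48 to -5.16. With the mean over cells in place of the median the class II difference was -5.58. Of the 8 members above 0 in at least 5 cells, 7 or 8 were lower by more than 1, against 5.57% of all 8529 genes in the main setting. H2-DMb2, among the 8, was above 0 in 2 of 23 high-score and 10 of 31 low-score cells. It passed the filter only through the low-score cells, so its place in the count is not a result. The log2 ratio of Cd74 to H2-Ab1, 0.09 in the median, changed sign to -0.09 as a ratio of sums, a shift within its SD of 0.58. The removal of cell 31, the mean in place of the median and the pathway genes without cells of other-type markers were chosen after seeing the data. The last gave 29 listed genes past 1 in place of 21, with 16 lower in place of 8 and 13 higher in both. No paired analysis was possible because the labels give every cell the same group. TPM hides depth, so a gene at 0 is not shown to be absent.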
